A study of Mus musculus with 6 samples.

Results

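Mouse genes for amino acid supply and the targets of the transcription factor ATF4 were followed in CD8+ T cells with and without the phosphatase gene Dusp2. The 42 genes were listed by name from known function, as 10 amino acid transporters, 9 serine and one-carbon enzymes, 3 enzymes of asparagine and proline synthesis, 8 genes of ATF4 and its stress response, and 12 cytosolic tRNA synthetases. They were chosen with earlier results of these data known. Their counts and shares beside those of all genes are therefore descriptive only. All 42 have a row among the 18122 gene rows of the deposited table. A mean of at least 1 FPKM (fragments per kilobase of transcript, scaled to the mapped fragments of the library) over the 6 libraries was reached by 38 of them, and by 9691 rows in all. Just inside that limit was Pycr1, with a mean of 1.28 FPKM, and just outside it was Chac1, with 0.890 FPKM.

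The cells were CD8+ T cells taken from lymph nodes of WT mice and of Dusp2-/- mice, written Dusp2KO here. All were kept for 18 h in RPMI-1640 medium with 10% serum on plates coated with anti-CD3 (1 µg/mL), together with anti-CD28 (1 µg/mL), IL-4 (20 ng/mL) and IFN-α (50 ng/mL), a mixture the submitters used to make virtual memory T cells in vitro. They were then sorted into a CD44 super-high fraction, written CD44hi, and a CD44lo fraction. CD44hi has 2 libraries per genotype and CD44lo has 1 library per genotype, so no group of CD44lo has a replicate. The treatment text of the labels names Cd4-Cre with Rpa1fl/fl mice, while the genotype labels and the series' design name Dusp2-/- mice. The labels give no strain, age or sex of the mice, and do not say whether replicates are separate mice or cultures. The p-values therefore speak only to the spread among these samples, which may be technical.

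Dusp2 was at 0, 0 and 0.0283 FPKM in the 3 Dusp2KO libraries and at 82.6 to 116 FPKM in the 3 WT libraries, and Cd44 was at 65.3 to 79.9 FPKM in CD44hi against 1.33 and 1.43 FPKM in CD44lo. Rpa1 was detected in all 6 libraries, from 27.4 to 41.4 FPKM. The CD8 T cell markers were present in every library (5 of 5, with a summed level of 915 to 1309 FPKM), Cd4 was at or below 0.0228 FPKM, and the B cell marker Cd79a was at or below 0.379 FPKM. Cd79b, another marker of the B cell list, was at 22.4 and 24.5 FPKM in CD44hi of Dusp2KO and at 9.88 and 12.2 FPKM in CD44hi of WT. Zbtb46, from the dendritic cell list, was at 1.86 and 1.82 FPKM in CD44hi of Dusp2KO, at 0.619 and 0.653 FPKM in that of WT, and at 0.665 (Dusp2KO) and 0.145 FPKM (WT) in CD44lo. Mitochondrial transcripts took 2.73% and 2.94% of reads in CD44hi of Dusp2KO and 2.15% and 2.03% in that of WT, with 3.79% (Dusp2KO) and 2.56% (WT) in CD44lo. They were thus higher in Dusp2KO within each fraction and higher in CD44lo within each genotype. The part of these markers and transcripts in the results was not tested. Xist, which marks female cells, had 15.1 and 15.5 FPKM in CD44hi of Dusp2KO and at most 0.00641 FPKM elsewhere, while the Y-linked Eif2s3y was detected in all 6. The sex of the cells therefore cannot be told apart from genotype in CD44hi or from fraction within Dusp2KO. The same holds for a genotype difference that differs between the fractions. The depth, as whole reads recovered from the steps of the FPKM values, was 23490008 reads for Dusp2KO CD44lo, and the other 5 libraries had 42816073 to 55830235.

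T cells that are activated grow and divide, and need amino acids for protein, for nucleotides and for methyl groups. They import them through membrane carriers, make serine from a glycolytic intermediate, and pass the carbon of serine into folate. When amino acids run short or the endoplasmic reticulum is stressed, kinases phosphorylate the translation factor eIF2, which favours translation of the Atf4 mRNA. ATF4 protein then switches on transporters, synthetic enzymes and tRNA synthetases, often through composite sites it binds with C/EBP proteins, and it also switches on Ddit3 and other stress genes.

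The core of that composite site, TGATGNAA, was searched on both strands from 250 bases before to 50 bases after each gene's start, in RefSeq promoters of build GRCm38.p6. An entry was matched by symbol for 34 of the 42 genes. The sequences below are examples from genes of asparagine and proline synthesis, the ATF4 stress response and the tRNA synthetases. Aars and Vldlr, of the same groups, also hold the motif before the start and are not shown. The sequences shown place it there, in capitals. Each is read along the strand of its gene, so that a match on the opposite strand appears as TTTCATCA or TTGCATCA. The authors' files name build mm39, and these coordinates are of GRCm38.
Asns, minus strand, chr6:7693214-7693243: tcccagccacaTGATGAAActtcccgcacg
Pycr1, minus strand, chr11:120643833-120643862: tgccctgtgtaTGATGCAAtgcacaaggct
Chac1, plus strand, chr2:119351038-119351067: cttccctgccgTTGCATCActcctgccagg
Gars, plus strand, chr6:55037960-55037989: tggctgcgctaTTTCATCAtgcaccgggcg
Tars, minus strand, chr15:11399659-11399684: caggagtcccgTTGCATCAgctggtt

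The motif begins 23 bases before the start in Asns, 103 in Pycr1, 193 in Chac1, 30 in Gars and 15 in Tars. In GENCODE M21, the Asns and Tars windows overlap a non-coding exon of the same gene, at least in part, and the Pycr1, Chac1 and Gars windows overlap no transcript. TGATGNAA was found in 12 of the 34 promoters (35.3%), against 4.51% of the 27025 promoters in the table and 2.61% of the 7588 whose gene had a mean of at least 1 FPKM. The list was drawn up to hold known ATF4 targets, so its share above that of all promoters is not a result. It was present for 5 of 8 tRNA synthetases, 2 of 3 genes of asparagine and proline synthesis, 3 of 8 ATF4 and stress genes and 2 of 7 transporters, and for 0 of 8 serine and one-carbon enzymes. The other genes that hold it were Slc1a4, Slc7a11, Trib3, Vldlr, Aars, Iars and Yars. The E-box CACGTG was found in 5 of the 34 (14.7%: Slc43a1, Aldh18a1, Aars, Iars and Tars), against 8.09% of all promoters and 12.6% of those with a mean of at least 1 FPKM. Aars, Iars and Tars hold both motifs, without overlap. A match describes the letters only, and no binding was measured.

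The most abundant of these genes per length of transcript came from several of the groups. In WT CD44hi, Shmt2, the mitochondrial serine hydroxymethyltransferase, stood at 179 and 178 FPKM. Atf4 itself followed with 132 and 135 FPKM. Phgdh, the enzyme that opens serine synthesis, was at 124 FPKM in both libraries, just above the glycyl-tRNA synthetase gene Gars at 120 and 123 FPKM. The glutamine carrier Slc1a5, at 117 and 90.3 FPKM in replicates 1 and 2, was above Slc3a2 (99.7 and 75.3 FPKM) and Slc7a5 (93.7 and 76.0 FPKM) in each library. Slc3a2 and Slc7a5 changed order between the 2 libraries. At the low end, Pycr1, Trib3 and Slc43a1 were between 1.07 and 1.73 FPKM in the same libraries.

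**Figure D1:**
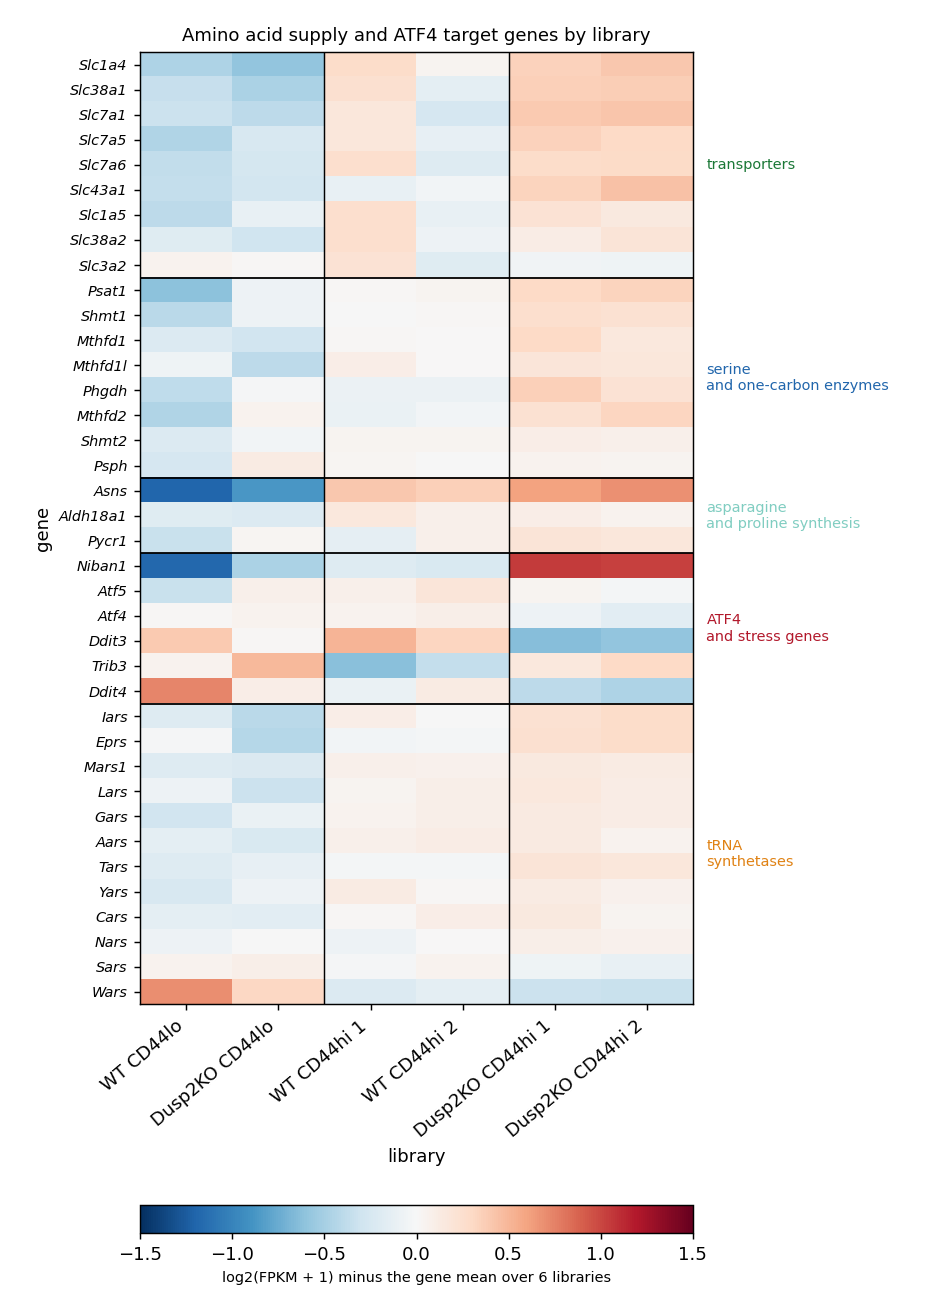
Level of each of the 38 tested genes (rows, by group) in each of the 6 libraries (columns), as log2(FPKM + 1) minus the gene's mean over the 6 libraries (colour scale). The CD44lo columns are mostly blue for transporters, serine enzymes and Asns, the Dusp2KO CD44hi columns are mostly red, and Ddit3, Ddit4 and Wars run the other way.

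Differences were tested with limma on log2(FPKM + 1) over all 9691 genes, and "rose", "fell" and "higher" or "lower" for a tested gene stand for a Benjamini-Hochberg adjusted p below 0.05. In CD44hi, 11 of the 38 tested genes rose in Dusp2KO, 2 fell and 25 did not pass. Of all genes tested, 26.7% passed (12.9% higher and 13.8% lower), so the 2 genes that fell are fewer than the background share and the 11 that rose are more. As the list was chosen with earlier results of these data known, this describes the list and is not a test of it. The median log2 difference was 0.12 for the 38 genes and -0.02 for all genes. Both Dusp2KO libraries lay above both WT libraries for 25 of the 38 genes, as for 32% of all genes, and below them for 6, as for 36.2% of all genes. By group, 4 of 8 serine and one-carbon enzymes rose, 2 of 9 transporters, 1 of 3 genes of asparagine and proline synthesis and 2 of 12 tRNA synthetases, while ATF4 and stress genes split into 2 that rose and 2 that fell of 6. In bulk RNA, more RNA of a gene per cell and more cells that carry it cannot be told apart.

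The 13 calls kept their direction under each alternative in which they were tested, which for Slc43a1 and Trib3 leaves out the minimum mean of 5 FPKM. The count was sensitive to single libraries: leaving out replicate 1 or 2 of Dusp2KO CD44hi left 6 or 4 calls, and leaving out WT CD44hi replicate 1 gave 23. Slc43a1, Psat1, Shmt1, Asns, Tars and Eprs lost their call without either Dusp2KO CD44hi library. Phgdh lost it without replicate 1, and Slc7a1, Mthfd2 and Ddit4 without replicate 2 (adjusted p from 0.0507 to 0.366 over these losses). Asns also lost it without WT CD44hi replicate 2 (adjusted p = 0.0563) and with a pseudocount of 0.1 (adjusted p = 0.0506). With no variance trend Slc7a1, Shmt1 and Tars missed (adjusted p from 0.0522 to 0.0694), and with the trend on gene length removed Tars and Eprs did (adjusted p = 0.0664 and 0.252). In an additive model of genotype and fraction over all 6 libraries 8 genes passed. With no filter on low values limma called 0 of the 42 genes, of which 19 had an unadjusted p below 0.05, and 2 rows in all. Over all genes the calls split into 1248 higher and 1338 lower, and into 1292 and 914 with every library rescaled to the same total.

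Between fractions, with genotype in the model, 22 of the 38 genes were higher in CD44hi, 3 were lower and 13 did not pass. Of all genes tested, 27.4% passed (16.6% higher and 10.8% lower). The median log2 difference was 0.30 for the 38 genes and 0.05 for all genes. All 4 CD44hi libraries lay above both CD44lo libraries for 24 of the 38 genes, as for 24.6% of all genes, and below for 1, as for 15.1% of all genes. By group, 8 of 9 transporters, 5 of 8 serine and one-carbon enzymes, 2 of 3 genes of asparagine and proline synthesis and 6 of 12 tRNA synthetases were higher, while 1 of 6 ATF4 and stress genes was higher and 2 were lower. Within WT alone, 2 of 9 transporters and 3 of 12 tRNA synthetases were higher, against 7 and 6 within Dusp2KO alone. Serine and one-carbon enzymes had 3 of 8 within WT and 5 of 8 within Dusp2KO. Of all genes, 15.4% were higher within WT and 23.6% within Dusp2KO. The transporter differences were above 0 for 8 of 9 genes in each genotype.

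The count of 25 was sensitive to 4 of the 6 libraries: it was 9 without either Dusp2KO CD44hi library, 9 without WT CD44hi replicate 1 and 15 without the Dusp2KO CD44lo library, against 23 without WT CD44hi replicate 2 and 24 without the WT CD44lo library. Slc7a5, Psat1, Asns, Ddit4, Niban1 and Wars passed under each alternative setting and without each library in turn, as did Slc1a4 except that it was not tested at a minimum mean of 5 FPKM. With median-ratio scaling 15 genes passed, 12 of them higher and 3 lower, without Slc1a5, Slc38a2, Phgdh, Mthfd1, Mthfd2, Aldh18a1, Gars, Lars, Tars and Aars, and over all genes the split moved from 1610 higher and 1045 lower to 1251 and 1382. With no filter on low values 14 passed. Within WT alone 15 of the 38 passed (background 26.1%) and within Dusp2KO alone 24 passed (background 40.1%).

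**Figure D2:**
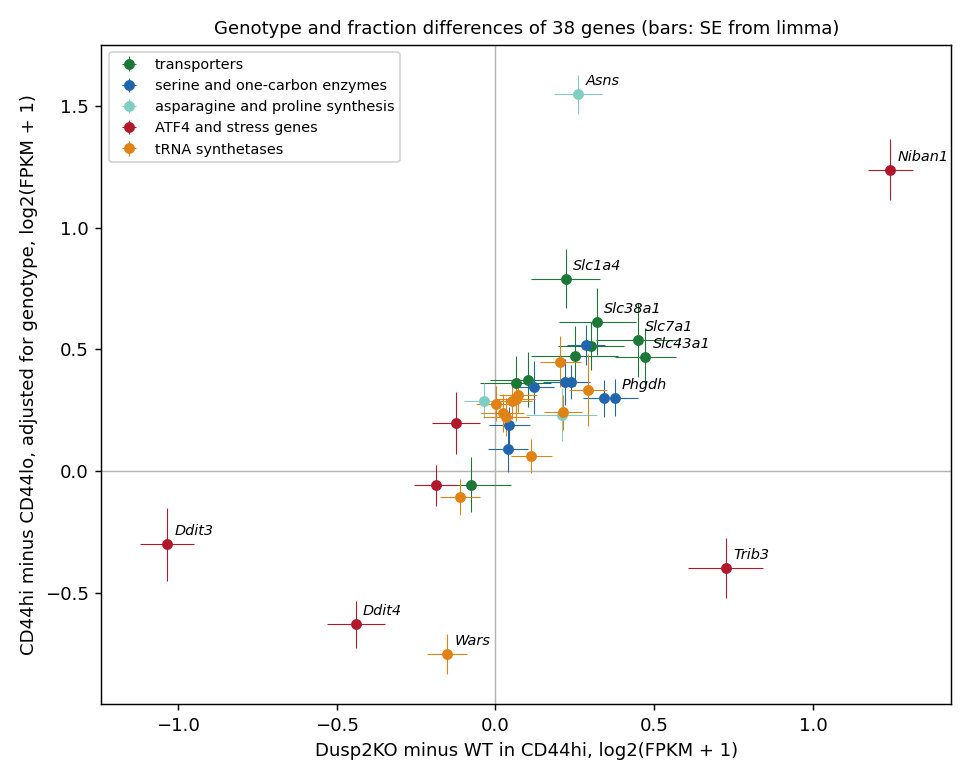
Each point is 1 of the 38 tested genes, with the Dusp2KO minus WT difference in CD44hi on the horizontal axis and the CD44hi minus CD44lo difference adjusted for genotype on the vertical axis, both as differences of log2(FPKM + 1) with SE bars from limma. Asns (0.26 and 1.55) and Niban1 (1.24 and 1.24) stand out at the top, and Trib3 (0.72 and -0.40) is at the lower right. The 2 axes share the CD44hi libraries, so their relation is not a result.

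Among the transporters, the 2 WT CD44hi libraries differed from each other, which does not show that either is the unusual one. In WT CD44hi, replicate 1 exceeded replicate 2 for 8 of 9 transporters, with a median log2 difference of 0.37, against 58.6% of all genes and a median of 0.04. The Dusp2KO CD44hi replicates differed by a median of -0.01 over the same 9 genes. The exception was Slc43a1. In the list of other amino acid transporters, replicate 1 of WT was higher for 11 of 11 tested genes, and among mitochondrial tRNA synthetases for 16 of 17. Across all 9691 genes the difference between these replicates had a Spearman correlation of 0.32 with gene length. What separates these replicates was not tested.

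**Figure D3:**
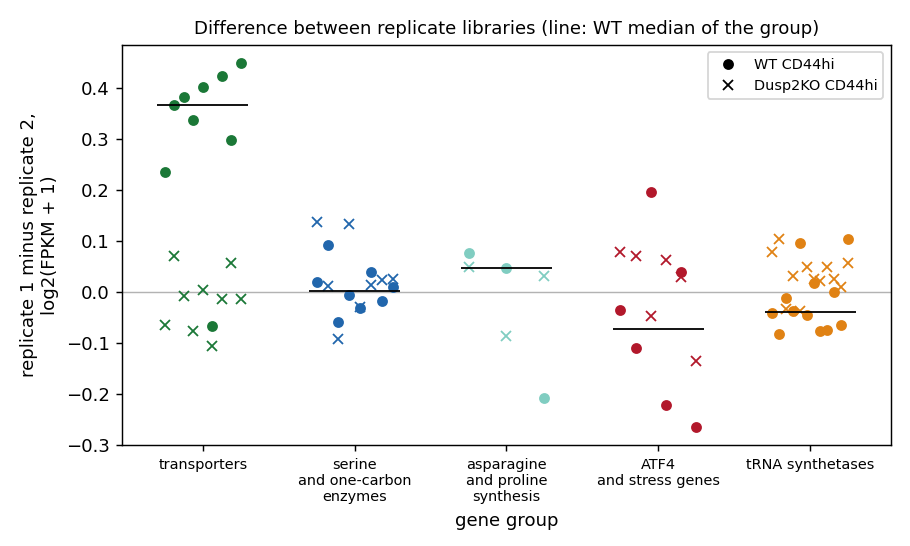
Replicate 1 minus replicate 2 in log2(FPKM + 1) for each tested gene, by group, in WT CD44hi (dots) and Dusp2KO CD44hi (crosses), with a line at the WT median. The WT dots of 8 of 9 transporters lie well above 0, with a median of 0.37, while the Dusp2KO crosses lie near 0.

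The cationic amino acid carrier Slc7a1, which brings in arginine and lysine, was at 26.8 and 19.7 FPKM (WT) and 31.6 and 31.9 FPKM (Dusp2KO) in CD44hi, with 18.8 FPKM (WT) and 17.8 FPKM (Dusp2KO) in CD44lo. Both Dusp2KO CD44hi values exceeded both WT values, and both CD44lo values were below every CD44hi value. It rose in Dusp2KO CD44hi by a log2 difference of 0.45 (SE 0.131, adjusted p = 0.0463) and was higher in CD44hi than in CD44lo by 0.54 (SE 0.152, adjusted p = 0.0365). The genotype difference was 0.66 without WT CD44hi replicate 1 and 0.24 without replicate 2. Slc43a1, a carrier of large neutral amino acids, was at 1.60 and 1.73 FPKM (WT) and 2.56 and 2.83 FPKM (Dusp2KO) in CD44hi, with 1.20 FPKM (WT) and 1.33 FPKM (Dusp2KO) in CD44lo. Dusp2KO CD44hi was thus highest without overlap. Its genotype difference was 0.47 (SE 0.0965, adjusted p = 0.0171), and 0.44 or 0.51 without WT replicate 1 or 2. Its difference between fractions was also 0.47 (SE 0.119, adjusted p = 0.0251).

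System L exchangers carry leucine and other large neutral amino acids as a light chain, such as Slc7a5, joined to the heavy chain Slc3a2. Slc7a5 was at 93.7 and 76.0 FPKM (WT) and 106 and 102 FPKM (Dusp2KO) in CD44hi, with 60.7 FPKM (WT) and 70.5 FPKM (Dusp2KO) in CD44lo. All CD44hi values exceeded both CD44lo values, and the difference between fractions was 0.51 (SE 0.0982, adjusted p = 0.00829). The genotypes did not overlap in CD44hi, but the difference of 0.30 did not pass (SE 0.103, adjusted p = 0.0726). Slc7a6, another light chain, was higher in CD44hi by 0.47 (adjusted p = 0.0288), from 22.1 to 31.2 FPKM against 19.4 and 21.0 FPKM. The shared heavy chain Slc3a2 was at 99.7 and 75.3 FPKM (WT) and 82.3 and 82.0 FPKM (Dusp2KO) in CD44hi, with 88.7 FPKM (WT) and 86.8 FPKM (Dusp2KO) in CD44lo. Its WT CD44hi replicates span all its other values. Neither comparison passed for Slc3a2 (differences of -0.08 and -0.06, SE 0.125 and 0.114, adjusted p = 0.680 and 0.746), but the first of them was 0.12 without WT replicate 1 and -0.28 without replicate 2, where it passed (adjusted p = 0.0125). Slc7a11, the light chain of the cystine exchanger, stayed at or below 0.0991 FPKM, with 18 to 73 reads per library, and was not tested.

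Slc1a4, Slc1a5, Slc38a1 and Slc38a2, carriers of neutral amino acids, were higher in CD44hi with no genotype call. Slc1a4, which carries alanine and serine, was at 3.13 and 2.51 FPKM (WT) and 3.34 and 3.54 FPKM (Dusp2KO) in CD44hi, with 1.49 FPKM (WT) and 1.27 FPKM (Dusp2KO) in CD44lo, a difference between fractions of 0.79 (SE 0.122, adjusted p = 0.00346). Every CD44hi value was above both CD44lo values. The sodium-coupled glutamine carriers Slc38a1 and Slc38a2 were higher in CD44hi by 0.61 (adjusted p = 0.0165) and 0.36 (adjusted p = 0.0453). Slc1a5 was higher by 0.38 (adjusted p = 0.0454), at 90.3 to 117 FPKM in CD44hi against 74.3 FPKM in WT and 90.0 FPKM in Dusp2KO CD44lo. The Slc1a5 values of Dusp2KO CD44lo and WT CD44hi replicate 2 nearly touch. Several of these fraction calls were lost with a single library left out. Each such fit also has fewer residual degrees of freedom, so a lost call alone does not show that 1 library carries the difference. Slc1a5 and Slc38a2 were lost without either Dusp2KO CD44hi library, WT CD44hi replicate 1 or the Dusp2KO CD44lo library, and Slc1a5 also without the WT CD44lo library. Slc7a1 and Slc7a6 were lost without the first 4 of these, Slc38a1 without the last 2 of the 4, and Slc43a1 without any 1 of the 3 Dusp2KO libraries (adjusted p from 0.0594 to 0.239 over these losses). For genotype, without WT replicate 1 the differences of Slc1a4, Slc1a5, Slc7a5, Slc7a6, Slc38a1 and Slc38a2 lay between 0.23 and 0.51 and all passed. Without replicate 2 they lay between -0.10 and 0.15 and none of the 6 passed, with adjusted p from 0.0814 to 0.757.

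Serine synthesis and its folate branch held 4 of the 11 genes that rose in Dusp2KO CD44hi. Summed over the 8 tested serine and one-carbon enzymes, the level in CD44hi was 553 and 551 FPKM (WT) and 650 and 628 FPKM (Dusp2KO), and in CD44lo 447 FPKM (WT) and 522 FPKM (Dusp2KO). Dusp2KO was above WT in both fractions. Phgdh was at 124 and 124 FPKM (WT) and 169 and 154 FPKM (Dusp2KO) in CD44hi, with 101 FPKM (WT) and 130 FPKM (Dusp2KO) in CD44lo. The Dusp2KO CD44lo value exceeded both WT CD44hi values. Phgdh rose by 0.37 in Dusp2KO CD44hi (SE 0.0728, adjusted p = 0.0147), was higher in CD44hi by 0.30 (SE 0.0768, adjusted p = 0.0252), and the unreplicated genotype difference in CD44lo was also 0.37. Leaving out Dusp2KO CD44hi replicate 1 took the genotype difference to 0.31 (adjusted p = 0.150). The fraction call was lost without either Dusp2KO CD44hi library, the Dusp2KO CD44lo library or WT CD44hi replicate 1 (adjusted p from 0.0504 to 0.112).

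Psat1, the transaminase of the next step, was at 51.6 and 52.8 FPKM (WT) and 63.2 and 64.6 FPKM (Dusp2KO) in CD44hi, with 33.1 FPKM (WT) and 48.3 FPKM (Dusp2KO) in CD44lo. The groups follow each other without overlap. Psat1 rose by 0.29 in Dusp2KO CD44hi (SE 0.0597, adjusted p = 0.0181), was higher in CD44hi by 0.52 (SE 0.0818, adjusted p = 0.00374), and differed between the genotypes by 0.53 in CD44lo. Its genotype call was lost without Dusp2KO CD44hi replicate 1 (0.30, adjusted p = 0.109) or replicate 2 (0.27, adjusted p = 0.161). Psph, the phosphatase that completes serine synthesis, was between 13.8 and 14.5 FPKM in all 4 CD44hi libraries, with 11.6 FPKM in WT CD44lo and 15.3 FPKM in Dusp2KO CD44lo, and passed in neither comparison (adjusted p = 0.670 and 0.511).

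Of the enzymes that move serine carbon into folate, the cytosolic Shmt1 and the mitochondrial Mthfd2 rose in Dusp2KO CD44hi. Mthfd2 was at 33.6 and 35.1 FPKM (WT) and 42.4 and 45.2 FPKM (Dusp2KO) in CD44hi, with 26.2 FPKM (WT) and 37.5 FPKM (Dusp2KO) in CD44lo. As for Phgdh, the Dusp2KO CD44lo value was above both WT CD44hi values. The Mthfd2 genotype difference was 0.34 (SE 0.0657, adjusted p = 0.0144), and 0.30 without Dusp2KO CD44hi replicate 2 (adjusted p = 0.120). Shmt1 was at 42.7 and 43.2 FPKM (WT) and 51.3 and 50.4 FPKM (Dusp2KO) in CD44hi, with 32.0 FPKM (WT) and 40.5 FPKM (Dusp2KO) in CD44lo. Its genotype difference was 0.24 (SE 0.0589, adjusted p = 0.0291), lost without Dusp2KO CD44hi replicate 1 or 2 (adjusted p = 0.233 and 0.195). Both Mthfd2 (0.30, adjusted p = 0.0271) and Shmt1 (0.37, adjusted p = 0.00791) were higher in CD44hi than in CD44lo. For Mthfd2 that call was lost without either Dusp2KO CD44hi library, WT CD44hi replicate 1 or the WT CD44lo library (adjusted p from 0.0577 to 0.106).

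Mthfd1, the cytosolic trifunctional folate enzyme, was at 61.7 and 60.9 FPKM (WT) and 75.1 and 68.2 FPKM (Dusp2KO) in CD44hi, with 52.8 FPKM (WT) and 49.6 FPKM (Dusp2KO) in CD44lo. The Dusp2KO values were higher without overlap, with a difference of 0.22 that did not pass (adjusted p = 0.0593). Mthfd1 was higher in CD44hi by 0.37 (adjusted p = 0.0259), a call lost without any 1 of the Dusp2KO libraries or WT CD44hi replicate 1 (adjusted p from 0.0678 to 0.115). Shmt2 (0.04 for genotype and 0.19 between fractions) and Mthfd1l (0.12 and 0.34) passed in neither comparison, the latter with adjusted p = 0.0511 between fractions. Aldh1l2, a mitochondrial folate dehydrogenase, had 4 to 92 reads per library and was not tested. It had 0.216 and 0.139 FPKM in CD44hi of Dusp2KO and 0.0552 and 0.0517 FPKM in that of WT.

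Asns, which makes asparagine and is a classical ATF4 target, had the largest difference between fractions of the 38 genes. It was at 9.46 and 9.14 FPKM (WT) and 11.0 and 11.7 FPKM (Dusp2KO) in CD44hi, with 2.45 FPKM (WT) and 3.31 FPKM (Dusp2KO) in CD44lo. CD44hi was 3.80-fold above CD44lo in WT and 3.43-fold above it in Dusp2KO. The difference was 1.55 (SE 0.0812, adjusted p = 4.4e-05), and it lay between 1.47 and 1.86 under the alternatives. The smaller rise in Dusp2KO CD44hi, 0.26 (SE 0.0757, adjusted p = 0.0459), was lost without Dusp2KO CD44hi replicate 1 (0.30, adjusted p = 0.175), without replicate 2 (0.22, adjusted p = 0.366) and without WT CD44hi replicate 2 (0.24, adjusted p = 0.0563). In the proline branch, Aldh18a1 was higher in CD44hi by 0.29 (adjusted p = 0.0213), with 33.7 to 36.2 FPKM against 28.6 and 27.9 FPKM. Its genotypes overlapped in CD44hi, and the fraction call was lost without either Dusp2KO CD44hi library or WT CD44hi replicate 1 (adjusted p from 0.0747 to 0.0934). Pycr1 was between 0.793 and 1.60 FPKM and passed in neither comparison (adjusted p = 0.205 and 0.154).

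**Figure D4:**
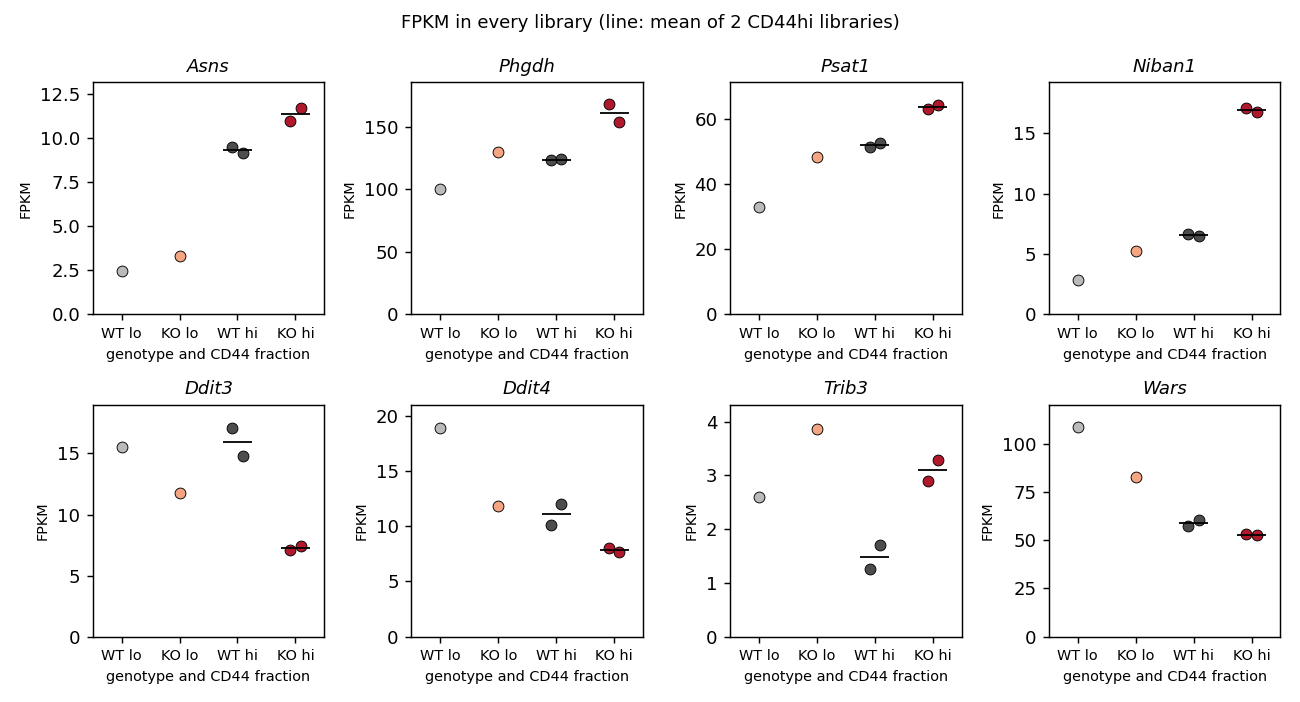
FPKM in every library for 8 genes, with 1 point per library and a line at the mean of the 2 CD44hi libraries (WT, wild type; KO, Dusp2-/-; lo, CD44lo; hi, CD44hi). Asns is highest in CD44hi of both genotypes, Niban1 in Dusp2KO CD44hi, Ddit3 is lowest in Dusp2KO CD44hi (7.12 and 7.40 FPKM), and Wars is highest in CD44lo.

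The ATF4 and stress genes did not move in 1 direction. Atf4 mRNA was at 132 and 135 FPKM (WT) and 120 and 114 FPKM (Dusp2KO) in CD44hi, with 128 FPKM (WT) and 132 FPKM (Dusp2KO) in CD44lo. Dusp2KO CD44hi was lowest without overlap, but its difference from WT of -0.19 did not pass (SE 0.0671, adjusted p = 0.0809). ATF4 is regulated in large part through translation, which these data do not measure. Atf5, a related factor, was at 8.75 to 10.3 FPKM in CD44hi and passed in neither comparison (adjusted p = 0.265 and 0.282).

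Ddit3, which encodes the pro-apoptotic stress factor CHOP, was at 17.1 and 14.8 FPKM (WT) and 7.12 and 7.40 FPKM (Dusp2KO) in CD44hi, with 15.6 FPKM (WT) and 11.8 FPKM (Dusp2KO) in CD44lo. The Dusp2KO CD44hi libraries were the lowest of the 6, at 0.455 of the WT mean. Ddit3 had the largest negative genotype difference of the 38 genes, -1.03 (SE 0.0851, adjusted p = 0.00124), and the call was lost only with no filter on low values (adjusted p = 0.0636). The genotype difference in CD44lo was -0.37. Ddit4, which encodes the mTORC1 inhibitor REDD1, was at 10.2 and 12.0 FPKM (WT) and 8.08 and 7.69 FPKM (Dusp2KO) in CD44hi, with 18.9 FPKM (WT) and 11.9 FPKM (Dusp2KO) in CD44lo. WT was above Dusp2KO in each fraction. Ddit4 fell in Dusp2KO CD44hi (-0.44, SE 0.0908, adjusted p = 0.0176; without Dusp2KO CD44hi replicate 2, -0.41 with adjusted p = 0.0542) and was lower in CD44hi than in CD44lo (-0.63, SE 0.0962, adjusted p = 0.0033).

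Other ATF4 targets went the opposite way. Niban1, an eIF2-linked stress gene, was at 6.67 and 6.46 FPKM (WT) and 17.1 and 16.7 FPKM (Dusp2KO) in CD44hi, with 2.88 FPKM (WT) and 5.27 FPKM (Dusp2KO) in CD44lo. Dusp2KO was 2.57-fold above WT in CD44hi and 1.83-fold above it in CD44lo. Niban1 had the largest positive genotype difference of the 38 genes, 1.24 (SE 0.0705, adjusted p = 0.000552; with no filter, adjusted p = 0.0527), and was higher in CD44hi by 1.24 (SE 0.127, adjusted p = 0.000542). Trib3, a pseudokinase that is itself a feedback inhibitor of ATF4, was at 1.25 and 1.71 FPKM (WT) and 2.90 and 3.28 FPKM (Dusp2KO) in CD44hi, with 2.61 FPKM (WT) and 3.86 FPKM (Dusp2KO) in CD44lo. Trib3 rose in Dusp2KO CD44hi (0.72, SE 0.118, adjusted p = 0.00868; with no filter, adjusted p = 0.101) and was lower in CD44hi than in CD44lo (-0.40, SE 0.123, adjusted p = 0.0492). The latter call was lost with a pseudocount of 0.1 or 0.5, with no filter, and without any 1 of the libraries except Dusp2KO CD44lo. It was also lost with rescaled totals, limma voom on recovered reads, the length trend removed, or CD44hi replicates paired by number.

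Chac1, a glutathione-degrading enzyme and ATF4 target, was below the limit for testing. In CD44hi it was at 0.618 and 0.507 FPKM in WT (44 and 47 reads) and at 1.53 and 1.36 FPKM in Dusp2KO (142 and 118 reads), with 0.480 FPKM (WT) and 0.844 FPKM (Dusp2KO) in CD44lo. Dusp2KO was 2.57-fold above WT in CD44hi without overlap. Vldlr, a lipoprotein receptor, had 0 to 10 reads per library.

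Of the 12 tRNA synthetases, which join amino acids to their tRNAs, 2 rose and 0 fell in Dusp2KO CD44hi, and 6 were higher and 1 lower in CD44hi than in CD44lo. The median difference over the 12 genes was 0.06 for genotype and 0.26 between fractions. Tars, for threonine, was at 27.2 FPKM in both WT libraries of CD44hi, with 32.0 and 31.4 FPKM for Dusp2KO, and at 24.1 FPKM (WT) and 25.3 FPKM (Dusp2KO) in CD44lo. Tars rose in Dusp2KO CD44hi by 0.21 (SE 0.0593, adjusted p = 0.0412), a call lost without Dusp2KO CD44hi replicate 1 or 2 (adjusted p = 0.298 and 0.243). Gars (0.29, adjusted p = 0.0273), Iars (0.45, adjusted p = 0.0188), Mars1 (0.31, adjusted p = 0.0156), Aars (0.28, adjusted p = 0.0285), Lars (0.30, adjusted p = 0.0458) and Tars (0.24, adjusted p = 0.0460) were higher in CD44hi. None of these 6 fraction calls held without Dusp2KO CD44hi replicate 1 or 2, or without WT CD44hi replicate 1. Aars, Iars, Lars and Tars were also lost without the Dusp2KO CD44lo library, Gars without the WT CD44lo library, and Lars and Tars without WT CD44hi replicate 2 (adjusted p from 0.0539 to 0.204 over these losses).

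Wars, for tryptophan, is known also as an interferon-induced gene, and IFN-α was in all cultures. It was at 57.6 and 60.3 FPKM (WT) and 53.1 and 52.8 FPKM (Dusp2KO) in CD44hi, with 109 FPKM (WT) and 82.7 FPKM (Dusp2KO) in CD44lo. It was the only 1 of the 38 genes with all CD44hi libraries below both CD44lo libraries. The difference was -0.75 (SE 0.082, adjusted p = 0.000713), between -0.87 and -0.63 under the alternatives. The genotype difference in CD44hi, -0.15, did not pass (adjusted p = 0.113). Cars, Nars, Sars and Yars passed in neither comparison, with genotype differences from -0.11 to 0.11.

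Eprs, which serves both glutamate and proline, was the 1 member whose genotype difference itself differed between fractions by limma's interaction test (1 of 38, against 4.22% of all genes). It was at 22.0 and 22.2 FPKM (WT) and 27.0 and 27.6 FPKM (Dusp2KO) in CD44hi, with 22.4 FPKM (WT) and 16.6 FPKM (Dusp2KO) in CD44lo. Dusp2KO was thus above WT in CD44hi and below it in CD44lo. The difference was 0.29 in CD44hi (SE 0.0604, adjusted p = 0.0178; without Dusp2KO CD44hi replicate 1, 0.31 with adjusted p = 0.0993; without replicate 2, 0.27 with adjusted p = 0.152) and -0.41 in CD44lo, and the interaction was 0.70 (SE 0.105, adjusted p = 0.0331). The interaction rests on 1 CD44lo library per genotype. With the trend of values on gene length removed from each library it was 0.23 (adjusted p = 0.317), and with no filter or no variance trend its adjusted p was 0.0715 or 0.0542. Genotype differences followed gene length across the 9691 genes with Spearman correlations of 0.27 in CD44hi and -0.33 in CD44lo. Without WT CD44hi replicate 1 or 2 the interaction passed for 12 or 8 of the 38 genes, and over all genes for 3046 or 1734 in place of 409. Over all genes it split into 265 higher and 144 lower, and into 379 and 43 with libraries rescaled to the same total, which moved its median from -0.01 to 0.13.

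**Figure D5:**
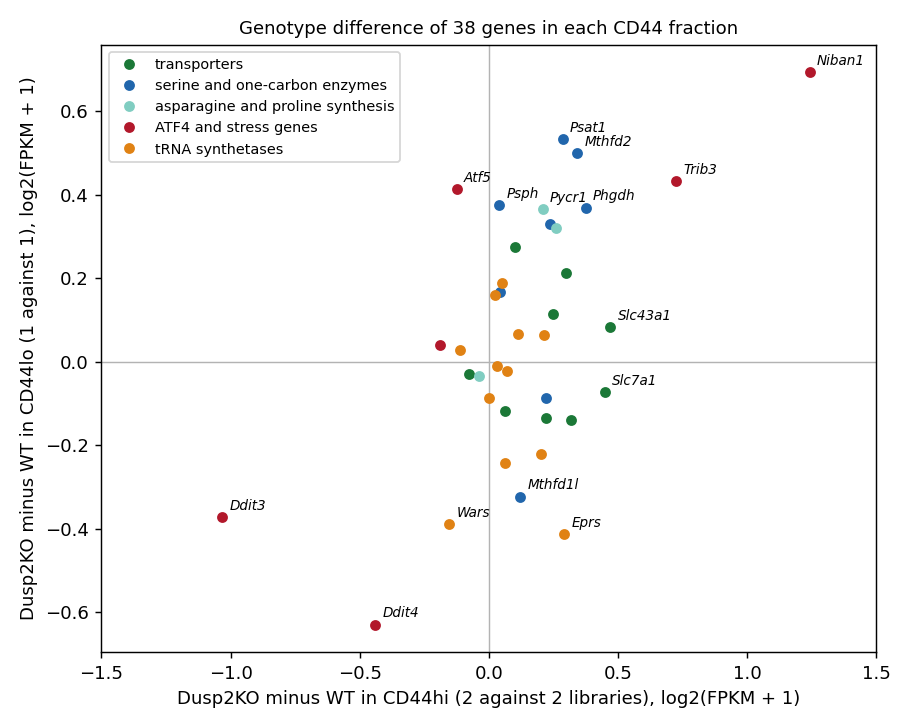
Dusp2KO minus WT difference of log2(FPKM + 1) for the 38 genes in CD44hi (horizontal, 2 libraries against 2) and in CD44lo (vertical, 1 against 1). Niban1, Trib3, Psat1, Mthfd2 and Phgdh are positive in both, Ddit3 and Ddit4 negative in both, and Eprs is positive in CD44hi and negative in CD44lo.

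The genotype difference could be set beside the pair of libraries in CD44lo, which are not among those of CD44hi, although the labels do not say whether both fractions came from the same mice or cultures. Xist was at 15.1 and 15.5 FPKM in CD44hi of Dusp2KO and at 0 FPKM in its CD44lo. The Dusp2KO fractions thus did not hold the same mixture of female and male cells. Of the 13 genes called in CD44hi, 11 had a CD44lo difference of the same sign (84.6%), against 67.1% of all genes called, and of the 38 tested genes 23 did (60.5%), against 56.6% of all genes. The exceptions among the 13 were Slc7a1 (-0.07 in CD44lo) and Eprs. Across the 38 genes the differences had a Pearson correlation of 0.56, and across all 9691 genes 0.42, as a description over genes of the same libraries. In CD44lo the median difference was 0.35 for serine and one-carbon enzymes, with 6 of 8 above 0 (48.4% of all genes were), -0.03 for transporters and -0.02 for tRNA synthetases, against -0.01 for all genes. None of the 38 genes differed by as much as 2-fold there, as 1.68% of all genes did.

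Members with and without TGATGNAA in the promoter were both mixed. Of 9 tested genes that hold it, 3 rose and 0 fell in Dusp2KO CD44hi, and 6 were higher and 1 lower in CD44hi than in CD44lo. Of 22 tested genes with a promoter entry and no match, 8 rose and 2 fell, and 12 were higher and 1 lower. Of all genes tested, 12.9% rose and 13.8% fell with genotype, and 16.6% were higher and 10.8% lower in CD44hi. The serine enzymes Phgdh, Psat1, Shmt1 and Mthfd2 are among those with no match in this window, and Asns among those with one.

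Around these genes, the lists for the same pathways gave further calls, to be read against the same shares of all genes (12.9% and 13.8% for genotype, 16.6% and 10.8% between fractions). Of 17 genes for the eIF2 kinases and the control of eIF2, 5 rose and 1 fell in Dusp2KO CD44hi, and 0 were higher and 2 lower in CD44hi than in CD44lo (7 had an unadjusted limma p below 0.05 there). Eif2ak4, the amino acid sensing kinase GCN2, was at 3.37 and 3.31 FPKM (WT) and 4.63 and 4.79 FPKM (Dusp2KO) in CD44hi, a rise of 0.40 (adjusted p = 0.0171; 0.0893 and 0.135 without Dusp2KO CD44hi replicate 1 and 2). The 1 gene that fell, Ppp1r15a, encodes the phosphatase subunit GADD34 that reverses eIF2 phosphorylation and is induced with Ddit3. It was at 30.7 and 29.4 FPKM (WT) and 18.0 and 18.9 FPKM (Dusp2KO) in CD44hi, with 36.5 FPKM (WT) and 25.2 FPKM (Dusp2KO) in CD44lo, lower in Dusp2KO in both fractions. Its difference was -0.68 in CD44hi (SE 0.0643, adjusted p = 0.0019). Of 11 tested ATF4 partners and further ATF4 targets, 5 rose and 0 fell with genotype. Among them were Batf3 (1.45), Cth (0.80), the mTORC1 inhibitor Sesn2 (0.51) and Herpud1 (0.38). Batf3 was at 3.97 and 4.37 FPKM in CD44hi of Dusp2KO and at 0.0246 to 0.895 FPKM in the other libraries. Cth was at 2.21 and 2.73 FPKM in CD44hi of Dusp2KO and at 0.750 and 1.26 FPKM in that of WT. In CD44lo it was at 0.0563 FPKM (WT) and 1.68 FPKM (Dusp2KO). Neither gene reaches a mean of 1 FPKM without the Dusp2KO CD44hi libraries, so these 2 calls are descriptive only. Sesn2 did not pass without Dusp2KO CD44hi replicate 1 (adjusted p = 0.102), nor Herpud1 without replicate 1 or 2 (adjusted p = 0.0587 and 0.0732). Between fractions 5 were higher and 2 lower, among them Batf3 (1.17), Gpt2 (0.52), Xpot (0.43) and, lower, Cebpb (-0.54). Gpt2 was at 1.49 to 1.62 FPKM in CD44hi and at 0.745 FPKM (WT) and 0.787 FPKM (Dusp2KO) in CD44lo. Batf3 and Gpt2 thus met the limit of 1 FPKM only through CD44hi libraries. Cebpb did not pass without Dusp2KO CD44hi replicate 2, Dusp2KO CD44lo or WT CD44hi replicate 1 (adjusted p from 0.0705 to 0.13).

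Of the folate, methionine and purine enzymes, 8 of 20 tested rose and 1 fell in Dusp2KO CD44hi, and 9 were higher and 1 lower in CD44hi than in CD44lo, where 12.9% and 13.8% of all genes rose and fell and 16.6% and 10.8% were higher and lower. Tyms, which uses folate to make thymidylate, was at 4.59 and 4.61 FPKM (WT) and 7.60 and 8.15 FPKM (Dusp2KO) in CD44hi, with 1.40 FPKM (WT) and 2.50 FPKM (Dusp2KO) in CD44lo. Dusp2KO was above WT in both fractions, and the differences were 0.66 for genotype (adjusted p = 0.00381) and 1.28 between fractions (adjusted p = 0.000108). Mat2a, the catalytic subunit that makes S-adenosylmethionine, rose by 0.57, while its regulatory subunit Mat2b fell (-0.45). Of 11 other amino acid transporters tested, 1 rose with genotype (Slc7a3, 0.66) and 4 were higher in CD44hi: Slc16a10 (0.69), Slc6a6 (0.71), Slc25a15 (0.51) and Slc38a7 (0.47). Slc7a3 was lost without Dusp2KO CD44hi replicate 2 (adjusted p = 0.0692), Slc6a6 and Slc38a7 without Dusp2KO CD44lo or WT CD44hi replicate 1, and Slc38a7 also without either Dusp2KO CD44hi library (adjusted p from 0.0677 to 0.185). Of 11 other cytosolic tRNA synthetases and complex subunits, 2 rose with genotype (Eef1e1, 0.55, and Rars, 0.26, the latter not without Dusp2KO CD44hi replicate 1 or 2, adjusted p = 0.17 and 0.205), and of 17 mitochondrial tRNA synthetases 1 did (Mars2, 0.62). The 1 of 11 other transporters and 1 of 17 mitochondrial synthetases that rose are below the 12.9% of all genes. Between fractions, 1 of the 11 other cytosolic genes and 2 of the 17 mitochondrial synthetases were higher in CD44hi, and 0 were lower. Both counts are below the 16.6% of all genes, unlike the 6 of 12 listed synthetases.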

How the data were processed

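The authors deposited 1 table of FPKM values per gene for 6 libraries of mouse CD8+ T cells. The submitters' processing notes name HISAT2 2.0.5 and the builds mm39 and hg38, with no counting tool named. Libraries were made from total RNA by standard Illumina methods, per the labels' protocols, while the sample descriptions name 10X Genomics and the deposited table holds 1 column of values per library. FPKM values of 1 library were whole multiples of a step for all 16220 rows above 0 in at least 2 libraries (tolerance 0.001 reads), so whole reads were recovered and tested with limma voom as an alternative, which called 2938 genes for genotype in CD44hi and 2549 between fractions.

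Differences were tested in limma 3.58.1 (R 4.3.3) with a variance trend, on log2(FPKM + 1) of the 9691 rows with a mean of at least 1 FPKM, two-sided, with Benjamini-Hochberg adjustment over all of them. A model with 1 mean per group (2 residual degrees of freedom) gave the genotype difference in CD44hi and the interaction, and an additive model (3 residual degrees of freedom) gave the fraction difference. Dusp2KO against WT in CD44lo has 1 library each and no test. Fold changes on this scale understate those of low genes. Scripts were tested on simulated data.

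The members and lists were chosen with earlier results of these data known. All members are named, and from each pathway list up to 4 genes with the smallest p per comparison. A gene that this rule would name is not reported here.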

Additional observations from a re-analysis of the deposited data

Results flagged for a closer look

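By limma's interaction test, the genotype difference of Eprs was higher in CD44hi than in CD44lo by a log2 difference of 0.70 (adjusted p = 0.0331). Among the pathway genes, Eif2ak2, the double-stranded RNA kinase PKR, had an interaction of 0.87 (adjusted p = 0.0371), with 14.4 to 18.7 FPKM in the 4 CD44hi libraries, 19.3 FPKM in WT CD44lo and 12.0 FPKM in Dusp2KO CD44lo. Eif2s3x, an X-linked subunit of eIF2, had an interaction of 0.71 (adjusted p = 0.0359). It was at 53.7 and 55.5 FPKM (WT) and 67.0 and 71.2 FPKM (Dusp2KO) in CD44hi, with 53.9 FPKM (WT) and 41.4 FPKM (Dusp2KO) in CD44lo. Beside it, Xist had 15.1 and 15.5 FPKM in CD44hi of Dusp2KO, and the Y-linked partner Eif2s3y was at 13.4 and 13.8 FPKM there against 18.4 to 20.3 FPKM in the other 4 (the Y-linked gene was chosen after its values were seen). The part of cell sex in this value was not tested. Each interaction rests on 1 CD44lo library per genotype, and all 3 lost their call with no filter on low values or with no variance trend, and Eif2s3x also without Dusp2KO CD44hi replicate 2 (adjusted p = 0.0508).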

How the results depend on the processing

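For genotype in CD44hi, 13 of the listed genes passed, against 0 with no filter, 8 in the additive model and 4 to 23 with a library left out, and 2586 of all genes, against 2, 1008 and 1088 to 4092. Between fractions 25 passed, against 14 with no filter, 15 with median-ratio scaling, 15 within WT only and 9 to 24 with a library left out, and over all genes 1570 to 3886 with a library left out. The interaction was passed by 1 gene, against 0 with no filter, no trend or the length trend removed (12, 9 and 10 had an unadjusted limma p below 0.05), 2 with quantile normalization or rescaled totals, 3 with a minimum mean of 5 FPKM or median-ratio scaling, and 1 to 12 with a library left out. Over all genes it was passed by 39 with no filter, 684 with median-ratio scaling, 117 with no trend, 238 with the length trend removed and 346 to 3046 with a library left out.

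The replicate block, which pairs CD44hi libraries by number, gave 18 listed genes for genotype, 11 between fractions and 8 for the interaction, and 3326, 1601 and 1565 over all genes. The numbers do not pair the samples by the labels, and deviations of same-numbered libraries had a correlation of 0.02 over genes.

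Direction turned only for genes that did not pass. With a library left out, the genotype difference ran from -0.080 to 0.29 for Slc1a5, -0.28 to 0.12 for Slc3a2, -0.10 to 0.23 for Slc38a2, -0.075 to 0.0022 for Aldh18a1, -0.019 to 0.085 for Cars, -0.029 to 0.074 for Yars and -0.037 to 0.041 for Aars. The fraction difference ran from -0.14 to 0.027 for Slc3a2, -0.077 to 0.26 for Psph, -0.17 to 0.057 for Atf4, -0.070 to 0.47 for Atf5, -0.63 to 0.029 for Ddit3 and -0.017 to 0.69 for Eprs. For genotype it also turned for Aldh18a1 (0.0095) with rescaled totals and, with the length trend removed, for Slc38a2 (-0.0093), Cars (-0.0056), Yars (-0.0040) and Aars (-0.077). Between fractions it turned for Slc3a2 (0.0059) and Atf4 (0.0049) with rescaled totals, Slc3a2 (0.046) with the block, and Nars with median-ratio scaling (-0.012) and the length trend removed (-0.0049). The cause was not tested. Where leaving out a library leaves a group with 1 sample, that sample is assumed to vary like the other groups. Such a fit also has fewer residual degrees of freedom, so a call can be lost with little change in the difference. CD44lo has no replicate, and genes with a mean under 1 FPKM were left out by the filter, except with no filter.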
